A study of Mus musculus with 4 samples.

Results

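The synaptic vesicle release machinery is described here in the pontine nucleus of the mouse, as 42 named genes that encode vesicle proteins, calcium sensors, fusion proteins, active zone scaffolds and the endocytic proteins that recover vesicles. The genes were taken by name, not by their values. Of the 42, 41 had a probe set that carries only their own symbol; the single probe set for Vamp2 carries 2 symbols, so that Vamp2, a major vesicle SNARE of the brain, is not valued. In all, 19938 genes had such a probe set and 10901 passed a level filter, which asked that the highest of the 4 arrays reach a log2 signal of 8.41, which is the median over every probe set with 1 symbol. All 41 genes passed it, Syt2 through the P5-labelled array alone and Cadps2 through the E17.5 array alone.

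Tissue came from ICR mice, an outbred stock, before birth at embryonic day 17.5 (E17.5) and after it at postnatal day 1 (P1), day 5 (P5) and day 14 (P14), with no treatment or allele named in the labels. Each age was 1 pool of dissected pontine nucleus, from 27 mice at E17.5, 16 at P1, 13 at P5 and 12 at P14, hybridised to 1 Affymetrix array. No age had a second array, so no test could be run, no p-value or standard error is given, and the spread between pools of mice is unknown. Values are log2 signals, and a difference of 1 is 2-fold. The standard deviation between probe sets of the same gene, over 645 genes with several, was 0.12 for P1 against E17.5, 0.18 for P5 against P1, 0.14 for P14 against P5 and 0.10 for P14 against P1, and it is the only error that the data allow. Signals of different probe sets are not on a common scale, so that levels are compared between arrays and never between genes.

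A nerve terminal holds vesicles filled with transmitter, tethers and primes them at the active zone, and fuses them with the plasma membrane when calcium enters. Fusion is driven by the SNARE proteins synaptobrevin (VAMP), syntaxin and SNAP-25, is triggered by synaptotagmins, and is followed by the recycling of SNAREs by NSF and of membrane by endocytosis. Many of these proteins come as paralogues that differ in calcium sensitivity, speed and the synapses that use them. Pontine neurons send mossy fibres to the cerebellum, whose large terminals form after birth.

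The P5-labelled array stood apart from the other arrays. The P14-labelled value fell between the P1 and P5-labelled values in 32 of 41 release genes (78.0%), against 60.5% of all genes past the filter. In none of the 41 did the P5-labelled value lie between the P1 and P14-labelled values, against 12.9% of all genes. The size of the difference between P1 and the P5-labelled array had a median of 0.88 over the 41 genes and 0.36 over all genes, while for P1 and the P14-labelled array it was 0.30 and 0.16. The range over the 4 arrays was at least 2-fold in 19 of the 41 genes (46.3%), against 19.4% of all genes. The labels are kept as deposited. P1 against E17.5 and P14 against P1 take no value from the P5-labelled array. Of 16 measured pontine genes, 11 reached the filter level on every array, 3 on some arrays and 2, Atoh1 and Lhx9, on none. Barhl1, a homeobox factor of rhombic lip neurons, stood at 12.23, 11.79, 10.83 and 11.61, and Pax6, another factor of that lineage, at 11.52, 11.03, 10.01 and 10.73, where the 4 values are from the arrays of E17.5, of P1, of P5 as labelled and of P14 as labelled. These genes are named for their role, with their values known. All sets of 4 values below are in this order.

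To show the DNA before the start sites of some genes with a wide range between the arrays, picked with their values known, the 250 bases before the RefSeq start site are printed for Vamp1, Syt2 and Unc13c, higher on the P5-labelled array, for Rab3b, lower there, and for Syn1, the one promoter of this set with a REST element part. All are from the RefSeq promoter table of build GRCm38.p6 and read 5′ to 3′ on the strand of the gene. Vamp1 lies at chr6:125215331-125215580 on the plus strand, Syt2 at chr1:134646362-134646611 on the plus strand (the outermost of 2 start sites), Unc13c at chr9:73969038-73969287 on the minus strand, Rab3b at chr4:108878820-108879069 on the plus strand and Syn1 at chrX:20920919-20921168 on the minus strand. Capitals mark matches, on either strand, to GGGCGG (the GC box), CCAAT (the CCAAT box), TATAAA (the TATA box), TGACGTCA (the cAMP response element) and TTCAGCACC (the left part of the element bound by REST, a repressor of neuronal genes outside neurons).
Vamp1: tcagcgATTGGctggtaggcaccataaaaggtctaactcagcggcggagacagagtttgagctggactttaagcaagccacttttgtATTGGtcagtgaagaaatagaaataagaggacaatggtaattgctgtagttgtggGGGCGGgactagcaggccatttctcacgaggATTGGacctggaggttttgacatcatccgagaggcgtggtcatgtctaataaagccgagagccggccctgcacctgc
Syt2: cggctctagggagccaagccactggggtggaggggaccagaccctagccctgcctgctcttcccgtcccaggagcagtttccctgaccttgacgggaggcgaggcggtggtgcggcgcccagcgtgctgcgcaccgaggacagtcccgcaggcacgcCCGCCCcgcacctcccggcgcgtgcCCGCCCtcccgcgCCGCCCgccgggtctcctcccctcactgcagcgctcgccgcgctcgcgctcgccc
Unc13c: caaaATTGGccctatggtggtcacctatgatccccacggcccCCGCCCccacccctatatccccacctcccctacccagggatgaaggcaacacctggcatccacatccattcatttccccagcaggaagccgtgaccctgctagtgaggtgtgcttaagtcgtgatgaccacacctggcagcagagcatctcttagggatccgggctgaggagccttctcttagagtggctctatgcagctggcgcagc
Rab3b: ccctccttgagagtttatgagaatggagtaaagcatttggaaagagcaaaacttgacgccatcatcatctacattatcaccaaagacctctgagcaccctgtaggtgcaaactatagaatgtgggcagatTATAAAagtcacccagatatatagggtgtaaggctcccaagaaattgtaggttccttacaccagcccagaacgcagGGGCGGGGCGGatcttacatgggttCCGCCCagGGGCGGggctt
Syn1: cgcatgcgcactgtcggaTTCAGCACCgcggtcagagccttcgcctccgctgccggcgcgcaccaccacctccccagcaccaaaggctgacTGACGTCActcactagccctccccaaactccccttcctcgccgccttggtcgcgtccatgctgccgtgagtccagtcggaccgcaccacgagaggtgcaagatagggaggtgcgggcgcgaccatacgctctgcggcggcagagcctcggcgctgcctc

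Vamp1 has 3 CCAAT matches and 1 GC box, Syt2 has 3 GC boxes, and Unc13c has 1 of each. Rab3b has 4 GC box matches, a pair of which overlap by 1 base, and a TATAAA match from −120 to −115 relative to the start. Syn1 holds TTCAGCACC from −232 to −224 and TGACGTCA from −159 to −152 relative to the start. The promoter table held 42 windows for 33 of the 42 genes. GGGCGG was in 23 of these 42 windows (54.8%) and in 32.7% of all 32851 windows of this length. CCAAT was in 10 (23.8%) against 33.8%, and TATAAA in 3 (7.14%), of Rab3b and Sv2b, against 12.4%. TGACGTCA was in 2 (4.76%), of Syn1 and Sh3gl2, against 1.55%, and TTCAGCACC in 1 (2.38%), that of Syn1, against 0.301%. The windows of the release genes had a median GC content of 60.0%, against 52.4% for all windows. These matches describe the letters in the windows and were not set against the array values.

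**Figure D1:**
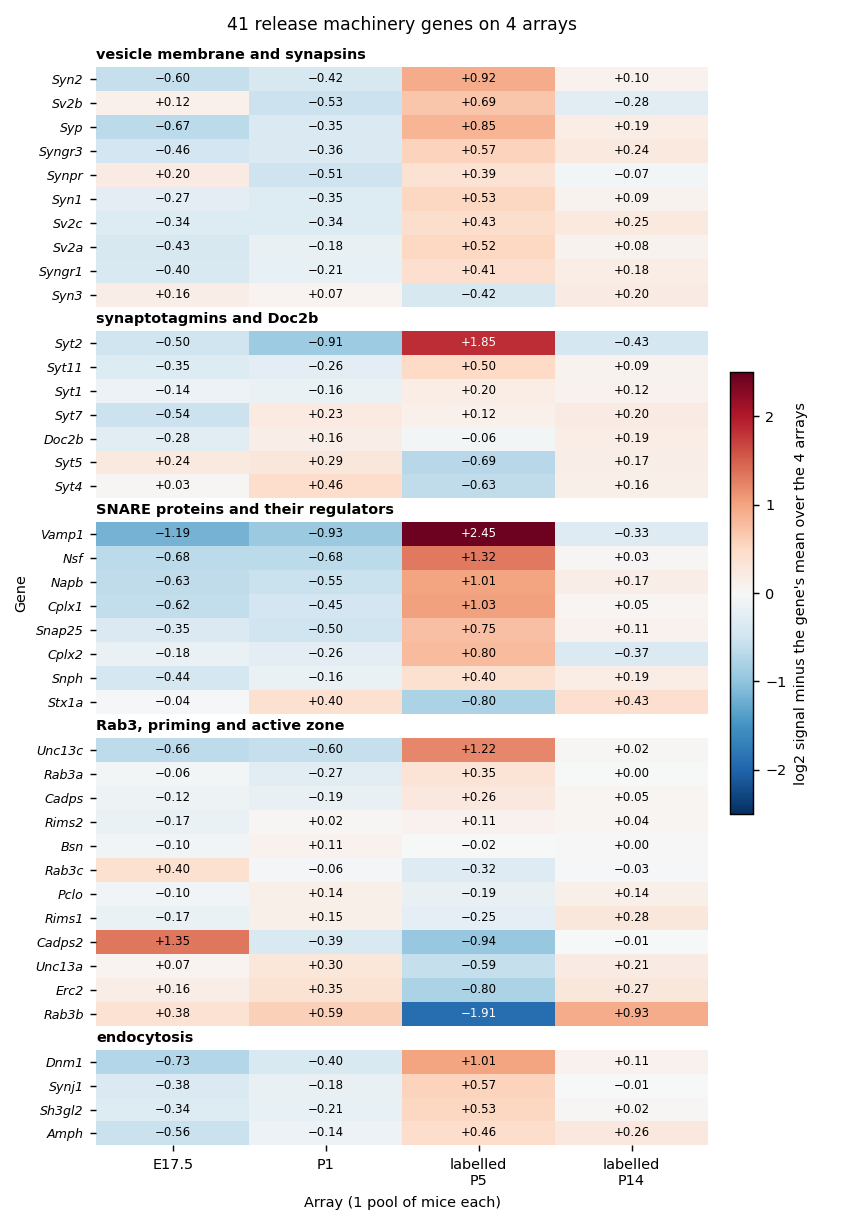
Each row is a gene and each column an array of 1 pool of mice; colour and printed number give the log2 signal minus the mean of that gene over the 4 arrays, with genes grouped by role and ordered by P5 minus P1. The P5-labelled array holds the highest value of 27 of the 41 genes and the lowest of 11, most of the latter in the Rab3, priming and active zone group.

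Around birth only 1 release gene differed by 2-fold or more, and most of the smaller differences were positive. Between E17.5 and P1 no release gene was at least 2-fold higher, against 0.826% of all genes past the filter, and 1 of 41 was at least 2-fold lower, against 0.275%. The median difference of the 41 genes was 0.17, with 27 above 0 and 12 below. Over all 10901 genes the median was −0.06, with 4202 above 0 and 6523 below. In 22 genes (53.7%) the difference lay above the probe set spread of 0.12, and in 7 (17.1%) below its negative. The shares of all genes were 23.8% and 40.2%. The gene past 2-fold was Cadps2, a priming factor of dense core and synaptic vesicles, at 9.05, 7.31, 6.76 and 7.69. It passed the filter through the E17.5 array alone, so that its being lower at P1 was fixed by the filter. The 3 later values lay under the filter level, and the size of its difference of −1.74 is inexact. Its paralogue Cadps stood at 11.88, 11.81, 12.26 and 12.05 and differed by −0.07 between E17.5 and P1. The largest positive difference was that of Syt7, a slow calcium sensor of high affinity, at 0.77, from 10.03 to 10.80; it then stood at 10.69 and 10.77. Synpr (−0.71) and Sv2b (−0.65), both vesicle membrane proteins, had the largest negative differences after Cadps2. Each of these 4 differences exceeds the spread between probe sets of 0.12.

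On the P5-labelled array most of the machinery was higher than at P1, and a smaller set was lower. Against P1, 12 of 41 genes (29.3%) were at least 2-fold higher, against 8.96% of all genes past the filter, and 4 of 41 (9.76%) at least 2-fold lower, against 3.94%. The median difference was 0.62 over the release genes and 0.05 over all genes. The 12 genes were Vamp1, Syt2, Nsf, Unc13c, Napb, Cplx1, Dnm1, Syn2, Snap25, Sv2b, Syp and Cplx2, and the 4 were Rab3b, Stx1a, Erc2 and Syt4. Syt2 passed the filter through the P5-labelled array alone, so its being higher there, and highest of the 4 arrays, was fixed by the filter. With each array centred on its own median the split was 11 higher and 6 lower, against 7.42% and 5.30% of all genes so centred. In 27 of 41 genes (65.9%) the labelled P5 value was the highest of the 4, against 39.7% of all genes, and in 11 (26.8%) it was the lowest, against 33.7%.

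The P14-labelled array lay nearer to P1. No release gene was at least 2-fold higher or lower on it than at P1, against 1.37% and 0.101% of all genes, and the largest difference was 0.72, of Napb. The median was nevertheless 0.28, with 33 genes above 0 and 7 below. Over all 10901 genes the median was −0.01, with 5155 above 0 and 5569 below. In 29 genes (70.7%) the difference lay above the probe set spread of 0.10, and in 4 (9.76%) below its negative. The shares of all genes were 32.2% and 33.5%. Against the P5-labelled array, 3 genes on the P14-labelled array were at least 2-fold higher (Rab3b, Stx1a and Erc2; background 2.16%) and 5 at least 2-fold lower (Vamp1, Syt2, Nsf, Unc13c and Cplx2; background 4.50%), with a median of −0.23 against −0.07. That Syt2 was lower on the P14-labelled than on the P5-labelled array was likewise fixed by the filter. These comparisons share the P1 and P5-labelled arrays with the one above, so their differences are not separate evidence. In 16 of 41 genes (39.0%) the values increased strictly from E17.5 over P1 and the P14-labelled to the P5-labelled array, against 15.7% of all genes, and in none did they increase in the order of the labels, against 3.16%. Leaving E17.5 aside, 26 genes (63.4%) increased from P1 over the P14-labelled to the P5-labelled array, against 33.0%, and 6 (14.6%) decreased in that order, against 27.6%.

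**Figure D2:**
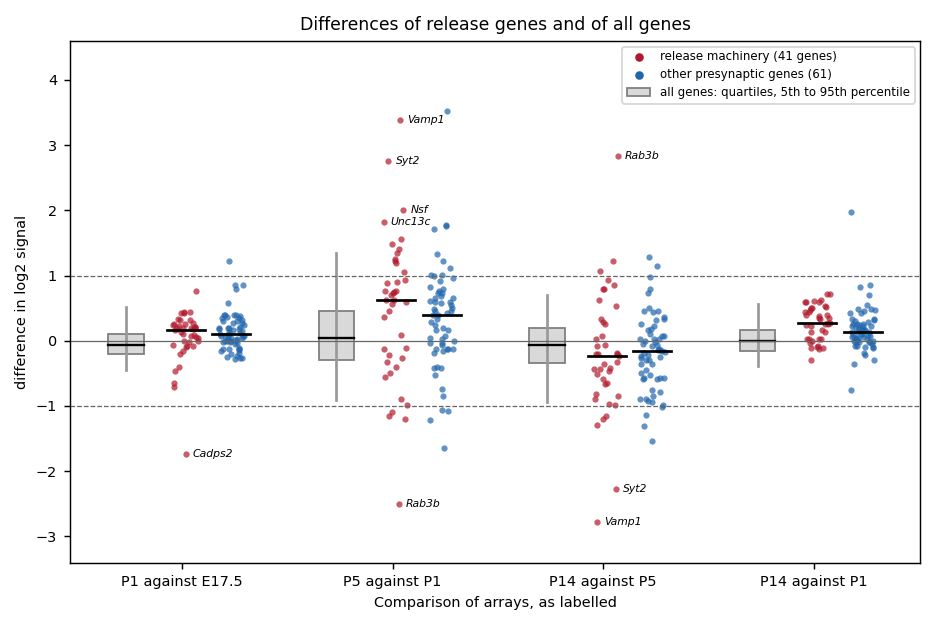
Differences in log2 signal for the 4 comparisons, as labelled: grey boxes and lines give the quartiles and the 5th to 95th percentile of 10901 genes, red points the 41 release genes, blue points 61 other presynaptic genes, black bars the medians, and dashed lines 2-fold. The red points spread widest in P5 against P1, from −2.50 (Rab3b) to 3.38 (Vamp1), and stay within 2-fold in P14 against P1.

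Markers of several cell types differed along with these genes. In bulk tissue, fewer cells of a type and less RNA per cell cannot be told apart. Compared with P1, the P5-labelled array was higher in 18 of 18 oligodendrocyte and myelin genes past the filter, in 17 by 2-fold or more, with a median of 4.16. The log2 of their summed signal was 12.55, 13.23, 16.59 and 14.08. Of the 18, 6 reached the filter level on every array and 12 on some. Mog, Mal, Ermn, Opalin and Aspa passed through the P5-labelled array alone. Their being higher there was thus fixed by the filter, and the sizes are inexact. The same holds for Gjb6, Itgam and Pvalb in the astrocyte, microglial and mature neuron lists. The median over astrocyte genes was 0.88, 7 of 15 reaching 2-fold, with a log2 summed signal of 14.06, 14.77, 15.74 and 15.31. The median over microglial genes was 0.64, 3 of 12 reaching 2-fold, with a log2 summed signal of 12.00, 12.54, 13.19 and 13.05. Glial lists were thus higher as well. The median over markers of mature neurons was 1.24, 9 of 16 reaching 2-fold, among them Nefh (8.42, 8.68, 12.36 and 10.50) and Thy1 (9.13, 10.16, 12.68 and 12.01); their log2 summed signal was 14.97, 15.13, 16.09 and 15.62. Immature neuron markers were lower in 20 of 20, in 14 by 2-fold or more, with a median of −1.52 and a log2 summed signal of 17.08, 16.94, 15.63 and 16.63. Among them Nhlh1 (6.07 and 5.75) and Nhlh2 (8.35 and 7.05) lay under the filter level on both arrays compared, so their differences are inexact in size. The pontine list shares Slc17a6 and Slc17a7 with the presynaptic genes and gave a median of −0.60. By 2-fold or more, 4 of 14 were lower and 1 was higher, the latter (7.14%) near the share of all genes. The log2 summed signal of the pontine list was 15.69, 15.41, 15.02 and 15.25. The summed signals take in every measured gene of a list, also those under the filter level, and mostly follow its strongest probe sets. The part of these cell types in the differences of the release genes was not tested.

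Neurons of other kinds gave fewer markers past the filter. Of 12 GABAergic and glycinergic genes 11 were measured and 5 passed, and none of the 5 reached 2-fold in P5 against P1 (median −0.13). Slc32a1, their vesicular transporter, stood under the filter level on every array at 7.86, 7.57, 7.32 and 7.70. The log2 summed signal of the list was 13.56, 13.27, 13.12 and 13.08. It mostly follows Sst, the strongest signal in the list, at 13.07, 12.89, 12.76 and 12.64. Of 9 cholinergic and motor neuron genes 8 were measured and 2 passed, Slc18a3 at 10.01, 9.93, 7.41 and 10.00 and Slc5a7 at 10.31, 10.27, 8.40 and 10.12, both lowest on the P5-labelled array. Chat, which makes acetylcholine, stood under the filter level at 8.17, 8.14, 7.22 and 8.19, and the log2 summed signal of the list was 11.66, 11.61, 10.16 and 11.61. Of 12 genes of cerebellar neurons 10 were measured and 6 passed, 2 of them lower by 2-fold or more on the P5-labelled array, with a median of −0.41. Gabra6, a gene of cerebellar granule cells, stood at 5.61, 5.87, 8.34 and 6.34, under the filter level on every array. The log2 summed signal of that list was 13.07, 13.28, 13.19 and 13.31. The part of these cells was not tested either.

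**Figure D3:**
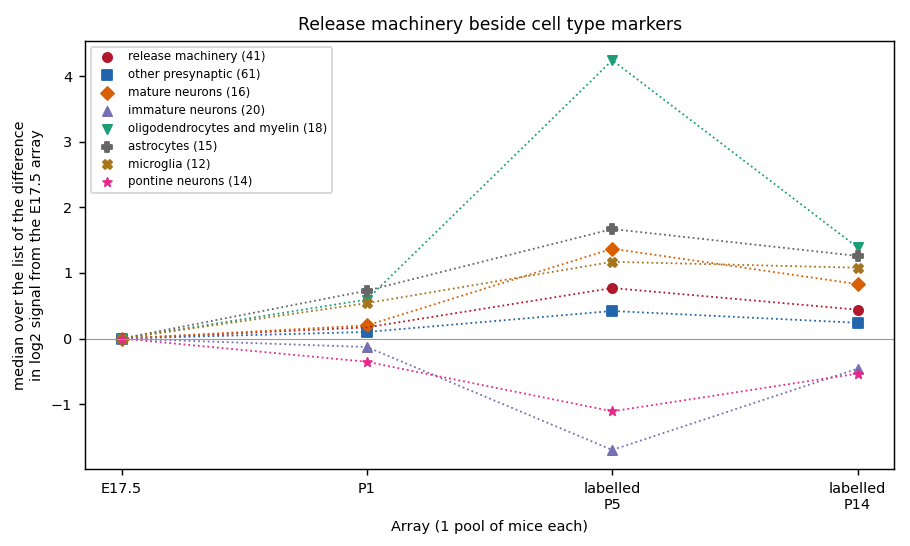
Median over each list of the difference in log2 signal from the E17.5 array (vertical axis) on each array, for the release genes, other presynaptic genes and markers of 6 cell types, with the number of genes past the filter in brackets. The release genes reach 0.77 on the P5-labelled array, myelin genes 4.25, and immature neuron genes −1.70.

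Genes for vesicle proteins were higher on the P5-labelled array with 1 exception. Of the 10 genes for vesicle membrane proteins and synapsins, 9 were above P1 and 3 at least 2-fold, against 8.96% of all genes, with a median of 0.89. On the P14-labelled array all 10 were above P1, between 0.13 and 0.60. Of all 10901 genes past the filter, 5851 were above P1 on the P5-labelled array and 5155 on the P14-labelled array. Syp encodes synaptophysin, the most used marker of synaptic vesicles, and stood at 11.26, 11.58, 12.78 and 12.12. Its values are lowest at E17.5 and highest on the P5-labelled array, a difference of 1.20 from P1. Synaptogyrin 3, Syngr3, followed the same order at 11.12, 11.22, 12.15 and 11.82, and Syngr1 ranged over 0.81. Synpr, encoding synaptoporin, was lowest at P1 (8.83, 8.12, 9.02 and 8.56).

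The synapsins, which tether vesicles to each other in the reserve pool, did not move together. Syn1 stood at 11.94, 11.86, 12.74 and 12.30 and Syn2 at 10.88, 11.06, 12.40 and 11.58, both highest on the P5-labelled array. Syn3, a synapsin expressed early in neurons, was lowest there, at 11.82, 11.73, 11.24 and 11.86. The difference of P5 against P1 was larger for Syn2 than for Syn3 by 1.83, and larger for Syn1 than for Syn3 by 1.37, several times the spread of 0.25 for a difference between 2 probe sets. Between E17.5 and P1 the corresponding values were 0.27 and 0.01.

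SV2 proteins are vesicle glycoproteins that act on release probability. Sv2a (11.77, 12.02, 12.72 and 12.28) and Sv2b (11.85, 11.20, 12.42 and 11.45) were both highest on the P5-labelled array, but Sv2b alone of the 3 was lower at P1 than at E17.5. The difference of P1 against E17.5 was larger for Sv2a than for Sv2b by 0.90. Sv2c, the third member, stood at 8.49, 8.49, 9.26 and 9.08.

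Among the calcium sensors the synaptotagmins diverged most. Synaptotagmins 1 and 2 are the fast sensors of synchronous release, Syt1 prevailing in forebrain and Syt2 in hindbrain and spinal synapses. Syt1 varied little, at 13.18, 13.16, 13.52 and 13.44. Syt2 stood at 7.79, 7.39, 10.14 and 7.86, so that the P5-labelled array alone was high and the other 3 lay under the filter level. Its being highest there was thus fixed by the filter, and the size of its difference of 2.75 from P1 is inexact. Taken as measured, the difference of P5 against P1 was larger for Syt2 than for Syt1 by 2.39. Syt11, which does not bind calcium, went from 12.09 at E17.5 to 12.94 on the P5-labelled array.

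Syt4 and Syt5 moved the other way. Syt4, a synaptotagmin of dense core vesicles with little calcium binding, stood at 11.17, 11.60, 10.51 and 11.30, lowest on the P5-labelled array by 1.09 against P1. Syt5 stood at 12.40, 12.45, 11.47 and 12.33, just within 2-fold at −0.98. For Syt5 the values of E17.5, of P1 and of the P14-labelled array lay close together, and the P5-labelled array alone was apart. Syt4 also differed by 0.43 between E17.5 and P1 and by −0.30 between P1 and the P14-labelled array. Doc2b, a calcium sensor for spontaneous and asynchronous release, ranged over 0.47, with its lowest value at E17.5.

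Genes for SNARE proteins and their regulators made up 6 of the 12 genes at least 2-fold higher. In P5 against P1, 6 of the 8 measured genes for SNARE proteins and their regulators were higher by 2-fold or more, against 8.96% of all genes, and 1 was lower by as much, against 3.94%, with a median of 1.37. Vamp1, synaptobrevin 1, which serves fast synapses of the brainstem and spinal cord, was read by probe set 10541877 and stood at 8.76, 9.02, 12.40 and 9.62. The P5-labelled array was high by 3.38, or 10.4-fold, over P1, and the P14-labelled array by 0.60; this was the largest range of any release gene. Snap25, the plasma membrane SNARE of neurons, stood at 12.46, 12.31, 13.56 and 12.92. Stx1a, syntaxin 1A, its partner on the plasma membrane, went the other way at 10.09, 10.53, 9.33 and 10.55, lower by 1.20 on the P5-labelled array than at P1 and level with P1 (0.02) on the P14-labelled array.

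NSF and its adaptors take spent SNARE complexes apart. Nsf stood at 10.97, 10.97, 12.97 and 11.68, with equal values at E17.5 and P1 and a 4-fold higher one on the P5-labelled array. Napb, the neuronal adaptor beta-SNAP, stood at 10.99, 11.07, 12.63 and 11.79. Both were higher on the P14-labelled array than at P1, by 0.71 and 0.72, the 2 largest such differences among release genes. Complexins clamp and activate the assembled SNAREs. Cplx1 stood at 11.31, 11.48, 12.96 and 11.98, and Cplx2 at 8.70, 8.62, 9.67 and 8.51. Both were highest on the P5-labelled array, but only Cplx1 was above P1 on the P14-labelled array, a difference between the paralogues of 0.61. Snph, syntaphilin, which anchors mitochondria in axons and binds syntaxin, ranged over 0.84 (9.60, 9.88, 10.44 and 10.23).

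Genes of Rab3, priming and the active zone went mostly the other way. Of 12, 4 were above P1 on the P5-labelled array and 8 below, with 1 at least 2-fold higher, near the 8.96% of all genes, 2 lower, against 3.94%, and a median of −0.30. Of all 10901 genes past the filter, 5851 were above P1 there and 4976 below. Rab3 proteins are the GTPases on the vesicle that bind RIM at the active zone. Rab3b, read by probe set 10506883, stood at 10.39, 10.60, 8.10 and 10.94: the P5-labelled array was low, under the filter level, and the others ran from 10.39 to 10.94. Rab3a, the main form in brain, stood at 11.09, 10.88, 11.50 and 11.15, and Rab3c at 10.91, 10.45, 10.19 and 10.48. The difference of P5 against P1 was larger for Rab3a than for Rab3b by 3.12, among the widest splits between paralogues.

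Munc13 proteins prime vesicles by opening syntaxin. Unc13a, the main priming factor of excitatory synapses, stood at 11.53, 11.76, 10.87 and 11.67, and Unc13c at 10.43, 10.49, 12.31 and 11.11. The P5-labelled array was thus the lowest for Unc13a and the highest for Unc13c, and their differences from P1 were 2.71 apart. Several probe sets read each gene: the 7 of Unc13c gave differences of P5 against P1 from 1.71 to 2.23 (mean 1.90 ± 0.17, SD over probe sets), and the 3 of Unc13a gave −0.89 to −0.35 (mean −0.62 ± 0.27). The Unc13a probe set at −0.35 lay under the filter level on every array (7.75, 8.14, 7.79 and 8.15), so the size of that difference is inexact. All probe sets of a gene had the same sign, and the ranges of Unc13a and Unc13c did not overlap. For P14 against P1 the Unc13c probe sets gave 0.31 to 0.69 and those of Unc13a −0.09 to 0.27.

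Of the active zone scaffolds, Bsn, Pclo and both RIM genes varied less, but Erc2 ranged over 1.15. Bsn (Bassoon; 10.10, 10.31, 10.18 and 10.20) and Pclo (Piccolo; 11.44, 11.68, 11.35 and 11.68), giant proteins that organise the release site, ranged over 0.21 and 0.33. Erc2 (ELKS2/CAST), which binds RIM and Bassoon, was lower on the P5-labelled array, at 11.38, 11.57, 10.42 and 11.49. Rims1 stood at 10.75, 11.07, 10.67 and 11.20 and Rims2 at 10.10, 10.29, 10.38 and 10.31, both RIM genes ranging over less than 2-fold. Within the CAPS pair, Cadps was higher and Cadps2 lower on the P5-labelled array than at P1, a split of 1.00 that is inexact because both Cadps2 values (7.31 and 6.76) lay under the filter level.

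All 4 endocytic genes were highest on the P5-labelled array, against 39.7% of all genes past the filter, and lowest at E17.5. The share of all genes lowest at E17.5 was not counted. Dnm1, dynamin 1, the GTPase that cuts vesicles from the membrane, stood at 11.31, 11.64, 13.05 and 12.15, a difference of 1.41 between P1 and the P5-labelled array. Amph, amphiphysin, which brings dynamin to the vesicle neck, stood at 11.33, 11.75, 12.35 and 12.15. Sh3gl2 (endophilin A1; 11.40, 11.53, 12.27 and 11.76) and Synj1 (synaptojanin 1, which helps remove the clathrin coat; 10.60, 10.80, 11.55 and 10.97) stayed within 2-fold. Their median in P5 against P1 was 0.75, and in P14 against P1 it was 0.32.

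**Figure D4:**
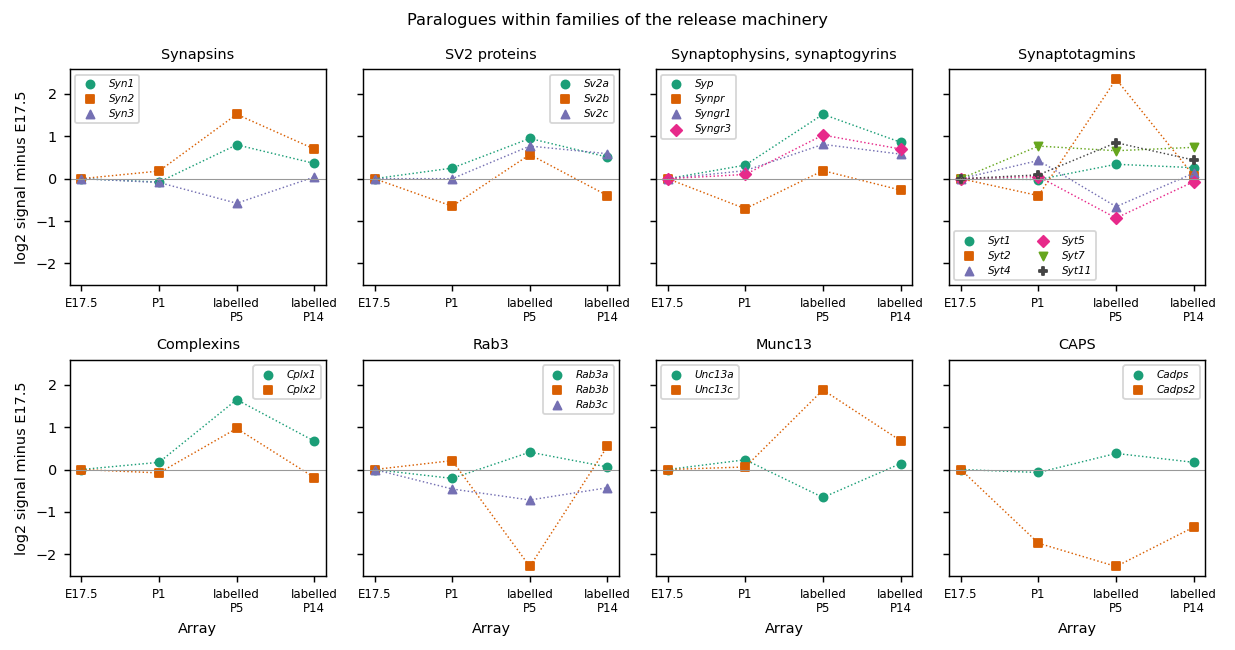
Log2 signal minus the E17.5 value (vertical axis) on each array for 8 families of the release machinery, 1 point per gene and array, with dotted lines only to guide the eye. Paralogues part on the P5-labelled array, as for Syt2 against Syt4 and Syt5, Rab3a against Rab3b and Unc13c against Unc13a, and lie nearer together on the P14-labelled array.

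Over 10 families, 35 pairs of measured paralogues could be set side by side. Their differences lay at least 2-fold apart in 15 pairs for P5 against P1, in 13 for P14 against P5, in 3 for P1 against E17.5 and in none for P14 against P1. Pairs drawn from all genes were not counted, so these counts have no background beside them. The median size of the split over the 35 pairs was 0.87, 0.71, 0.38 and 0.24 in the same order. For the differences of single genes, an unlike measure, the median size over all genes was 0.36, 0.27, 0.17 and 0.16. The synaptotagmins gave more pairs than any other family. The 15 pairs share genes: Syt2 is in 5 of them and Rab3b in 2. In 8 of the 15, and in 8 of the 13, a value compared lay under the filter level, so that the size of the split is inexact. The widest split was that of Syt2 from Syt4, at 3.84, which rests on a Syt2 level under the filter at P1. The 3 pairs around birth were Syp minus Synpr (1.03), Syt2 minus Syt7 (−1.17) and Cadps minus Cadps2 (1.67), and each rests on a value under the filter level, of Synpr at P1, of Syt2 on both arrays and of Cadps2 at P1.

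The difference of P14 against P1, taken as a percentage of that of P5 against P1, differed between the genes. For the 12 genes past 2-fold upward, the P14 difference was a median of 34.8% of the P5 difference, and 30.9% for all 977 genes past 2-fold upward. It was 48.8% for Snap25, 46.2% for Napb and 45.0% for Syp, and 17.8% for Vamp1, 17.1% for Syt2 and −10.5% for Cplx2. For the 4 genes past 2-fold downward it ran from −13.6% (Rab3b) to 27.5% (Syt4), with a median of 2.64%. Both sets were chosen by the difference that divides the percentage, so it is a description.

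The other genes of the pathway, a list of 72 of which 67 were measured and 61 passed the filter, had smaller medians than the release genes, a difference that was not tested. In P5 against P1, 10 of 61 (16.4%) were higher by 2-fold or more and 4 (6.56%) lower, against 8.96% and 3.94% of all genes, with a median of 0.40; between E17.5 and P1 the median was 0.10, and for P14 against P1 it was 0.14. The largest positive differences were those of Slc17a7, the vesicular glutamate transporter VGLUT1 (8.16, 9.38, 12.90 and 11.36), Lin7b, a scaffold that binds CASK (9.28, 9.59, 11.36 and 10.42), and Atp6v1g2, a neuronal subunit of the proton pump that energises vesicle filling (10.65, 11.01, 12.77 and 11.87). Each was lowest at E17.5 and highest on the P5-labelled array. The most negative were those of Unc13b, the Munc13-2 priming factor (10.46, 10.44, 8.79 and 10.08), Rims3, a short RIM protein (10.81, 10.78, 9.57 and 10.03), and Erc1, the ELKS paralogue of Erc2 (11.20, 11.60, 10.53 and 11.67). Rimbp2, the RIM binding protein that links calcium channels to the release site, was the fourth gene at least 2-fold lower, at −1.06, and is named after its value was seen.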

How the data were processed

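Total RNA from 4 pools of pontine nucleus was turned into sense-strand cDNA and hybridised, per the labels' protocols. The authors deposited log2 signals per probe set. Per the submitters' processing notes they used Affymetrix Expression Console; how the signals were summarised and normalised is not given in the sources used here. Values ran from 1.84 to 14.72, which shows the log2 scale. Of 35556 probe sets, 21789 had 1 symbol in the platform's table, 1621 several and 12146 none. A gene with several probe sets was read by that of highest mean. Release genes had 49 probe sets, whose Entrez identifiers all gave the same symbol in RefSeq.

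Differences between arrays were counted at 2-fold (1 on the log2 scale) with pandas 2.3.3 and numpy 2.4.6; the counting was tested on simulated data. The number of arrays limits the precision, and array background was not measured. The genes, lists and comparisons were chosen with earlier results of these data known; the lists of cerebellar and cholinergic neurons were added after values were seen. All 4 values are given for release genes with a 2-fold range, those in pairs of paralogues and 6 fixed genes, and for most others; of other presynaptic genes, for the 3 largest differences each way in P5 against P1. Alternatives were the level filter, the probe set choice, the scaling and the fold threshold.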

Additional observations from a re-analysis of the deposited data

How the results depend on the processing

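Counts of release genes stayed within 1.5 times, and medians within the probe set spread, without a level filter, with probe sets of a gene averaged, after quantile normalisation and with arrays centred on their medians. Centring moved the median of all genes for P5 against P1 from 0.05 to −0.06 and that of the release genes from 0.62 to 0.51. When the mean of the 4 arrays had to reach the level, Cadps2 and Syt2 dropped out, and the count at least 2-fold lower at P1 than at E17.5 was 0. At a 1.5-fold threshold the counts were 1 higher and 3 lower for P1 against E17.5, 23 higher for P5 against P1, 8 higher and 12 lower for P14 against P5, and 7 higher for P14 against P1. The background at 1.5-fold was 3.83% and 2.08%, 19.2%, 7.16% and 12.5%, and 4.70% in the same order. At a 3-fold threshold the counts were 4 higher and 1 lower for P5 against P1, and 1 higher and 2 lower for P14 against P5, with a background of 3.60% and 1.17%, and 0.505% and 1.60%. No difference of at least 2-fold of a single gene or pair changed sign under quantile normalisation, averaged probe sets or centring (used for single genes after seeing the data). Smaller signs changed for Rims2, for Unc13a, Stx1a, Rab3c and Doc2b in P14 against P1, and for the pairs of Syn1 with Syn3 and Sv2a with Sv2c, all under 0.10 in size. No paired analysis was possible because each age had 1 array, and no replicate could be left out. The filter level is no background, so differences of Syt2, Cadps2, Rab3b and Synpr, with values under it, are inexact.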

Other observations

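Some genes of the vesicle proton pump and of clathrin coats, from the list of other presynaptic genes, are given here after their values were seen. The pump subunits Atp6v1a (11.53, 11.52, 12.53 and 11.95), Atp6v1b2 (11.78, 11.86, 12.86 and 12.02) and Atp6v0a1 (12.22, 12.38, 12.84 and 12.68) differed from P1 by 1.01, 1.00 and 0.46, with the 4 values again from the arrays of E17.5, of P1, of P5 as labelled and of P14 as labelled. The clathrin genes Cltc, Clta and Cltb differed by 0.34, 0.29 and 0.65, all highest on the P5-labelled array, while of the coat adaptor genes Ap2b1 (12.31, 12.19, 12.01 and 12.33) was lowest there and Ap2a2 (11.44, 11.31, 11.55 and 11.55) was level with the P14-labelled array. Slc17a6, the vesicular glutamate transporter VGLUT2, stood at 11.44, 11.17, 11.57 and 11.49, a range of 0.40, while Slc17a7 ranged over 4.74. The latter size is inexact, since the Slc17a7 value at E17.5 (8.16) lay under the filter level.

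Some presynaptic genes, picked after their values were seen, had their largest difference between E17.5 and P1 and not on the P5-labelled array. Doc2a, a calcium sensor related to Doc2b, stood at 9.13, 9.98, 10.02 and 10.46, and Ppfia4, a liprin of the active zone, at 8.97, 9.83, 9.91 and 10.17. Both were lowest at E17.5 and highest on the P14-labelled array, so that they followed the order of the labels. Others of the list, among them Stx3, Snap29, Rims4 and Sh3gl1, also differed most between E17.5 and P1 but did not follow the order of the labels. Apba1, of the same list, followed that order too (11.23, 11.81, 12.29 and 12.51). None of the 41 release genes did, which is near the 3.16% of all genes past the filter. Among the release genes Syt7, Cadps2, Rab3c, Doc2b, Bsn and Rims2 also had their largest difference between E17.5 and P1. The share of all genes that did so was not counted.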
